A study of Drosophila melanogaster with 3 samples.

Results

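The 10 genes described here are EcR, usp, br, Eip74EF, Eip75B, Eip78C, Hr3, Hr4, ftz-f1 and Kr-h1, which encode the ecdysone receptor of Drosophila melanogaster, its partner and transcription factors that respond to the hormone. They were chosen by name from 13945 protein-coding genes, with earlier results of these data known. A peak was given to a gene when its summit lay in the gene's dm6 span or within 2 kb of it. Of the 3646 peaks in the optimal list, 30 (0.823%) met that rule, and 9 of the 10 genes had at least 1. The peaks came from chromatin immunoprecipitation and sequencing (ChIP-seq) of whole embryos of both sexes, aged 0 to 24 h, in 1 group of 3 biological replicates. The flies were of strain pnt-MiMIC-GFP, a single line with an eGFP exon in an intron of the endogenous pnt gene, so the protein pulled down with anti-GFP was Pointed fused to eGFP. The antibody label names pnt while the description says anti-GFP. No untagged or differently treated embryos were analysed here, so no comparison between conditions was possible. A whole embryo mixes tissues and stages, and a peak does not tell in which cells or at which hour the protein was bound. Read depth is unknown, so a gene with no listed peak is not shown to be free of the protein.

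Ecdysone is the steroid hormone that times moulting and metamorphosis in insects, and a pulse of it also occurs during embryogenesis. It binds a heterodimer of EcR and Ultraspiracle (usp), which switches on a first set of early genes, among them br, Eip74EF and Eip75B. Their products and later nuclear receptors such as Hr3, Hr4 and Ftz-f1 then act on one another and on downstream genes in a timed cascade. Pointed is an activator with an ETS DNA-binding domain that works downstream of the EGF receptor and MAP kinase. ETS proteins recognise sequences built around GGAA.

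Sequence around 4 of the 30 summits is shown first, because these windows span the contrast between peaks with and without the ETS core letters. Each runs 100 bp either side of the summit on dm6 (Release 6) and lies in an intron. Ranks are by signal in the optimal list, with 1 the strongest. In the first, capitals mark GGAA on either strand, and the letters stand there 5 times. In the next, from another strong Hr4 peak, with no GGAA, they mark GAGAG, the letters bound by GAGA factor. The br window holds none of the words searched and has no capitals. In the Eip74EF window capitals mark GGAA and 1 copy of AGGTCA, letters bound by nuclear receptors.
Hr4, rank 190, chrX:1947649-1947849, plus strand: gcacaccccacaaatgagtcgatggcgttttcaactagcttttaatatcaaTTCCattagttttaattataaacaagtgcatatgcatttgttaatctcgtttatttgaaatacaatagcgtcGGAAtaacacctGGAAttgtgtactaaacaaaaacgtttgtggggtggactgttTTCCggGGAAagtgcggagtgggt
Hr4, rank 268, chrX:1963821-1964021, plus strand: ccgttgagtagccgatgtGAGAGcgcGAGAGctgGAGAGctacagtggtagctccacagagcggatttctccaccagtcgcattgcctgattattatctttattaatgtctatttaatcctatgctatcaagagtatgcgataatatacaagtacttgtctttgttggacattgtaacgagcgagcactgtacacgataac
br, rank 685, chrX:1618775-1618975, plus strand: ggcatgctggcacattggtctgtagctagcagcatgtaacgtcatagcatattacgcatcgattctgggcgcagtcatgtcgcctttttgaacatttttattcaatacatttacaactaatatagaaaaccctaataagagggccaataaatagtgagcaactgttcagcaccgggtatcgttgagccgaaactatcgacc
Eip74EF, rank 2706, chr3L:17566938-17567138, plus strand: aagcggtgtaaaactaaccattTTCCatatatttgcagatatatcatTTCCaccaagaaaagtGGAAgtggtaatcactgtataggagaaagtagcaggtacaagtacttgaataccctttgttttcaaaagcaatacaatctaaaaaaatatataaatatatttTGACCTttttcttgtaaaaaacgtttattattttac

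A further 3 windows are shown because they share a longer word, AGATGGCGC, marked in capitals on either strand. These letters form the core of the sequence bound by the insulator protein CTCF.
Hr4, rank 516, chrX:1953021-1953221, plus strand: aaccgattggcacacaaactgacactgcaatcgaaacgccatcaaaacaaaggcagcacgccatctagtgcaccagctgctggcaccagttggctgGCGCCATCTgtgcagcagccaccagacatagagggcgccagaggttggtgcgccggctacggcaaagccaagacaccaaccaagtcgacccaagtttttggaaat
Eip75B, rank 2058, chr3L:17988234-17988434, plus strand: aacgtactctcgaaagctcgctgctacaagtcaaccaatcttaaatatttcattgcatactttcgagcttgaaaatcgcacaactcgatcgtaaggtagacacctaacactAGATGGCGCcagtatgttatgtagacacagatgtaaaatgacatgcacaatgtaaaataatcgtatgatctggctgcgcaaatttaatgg
Eip75B, rank 2607, chr3L:18019714-18019914, plus strand: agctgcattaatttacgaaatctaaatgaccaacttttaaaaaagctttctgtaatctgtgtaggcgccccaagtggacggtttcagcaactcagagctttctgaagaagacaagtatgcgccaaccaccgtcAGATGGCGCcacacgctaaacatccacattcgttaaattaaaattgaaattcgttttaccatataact

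Most of the 10 genes carried optimal peaks, and a single gene, Hr4, carried 36.7% of them. Peaks were listed at 9 of 10 genes, while 29.4% of all protein-coding genes had one. The 10 genes are long, with a median span of 55678.5 bp against 2166 bp over all protein-coding genes. Among protein-coding genes of at least 30 kb, a length limit set after these values were seen, 56.0% had an optimal summit, as did 8 of the 8 members of that length. Summits stood at 5.06 per 100 kb over the 10 genes and their flanks, at 3.63 per 100 kb without Hr4 and at 2.72 per 100 kb over the 6 chromosome arms. Hr4 held 11 of the 30 (36.7%), Eip75B 6, Hr3 and ftz-f1 3 each, EcR and usp 2 each, and br, Eip74EF and Eip78C 1 each. Kr-h1 had none. Members were chosen by name with earlier results of these data known, and there is 1 group. These shares are therefore descriptions, and no test was made of them.

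**Figure D1:**
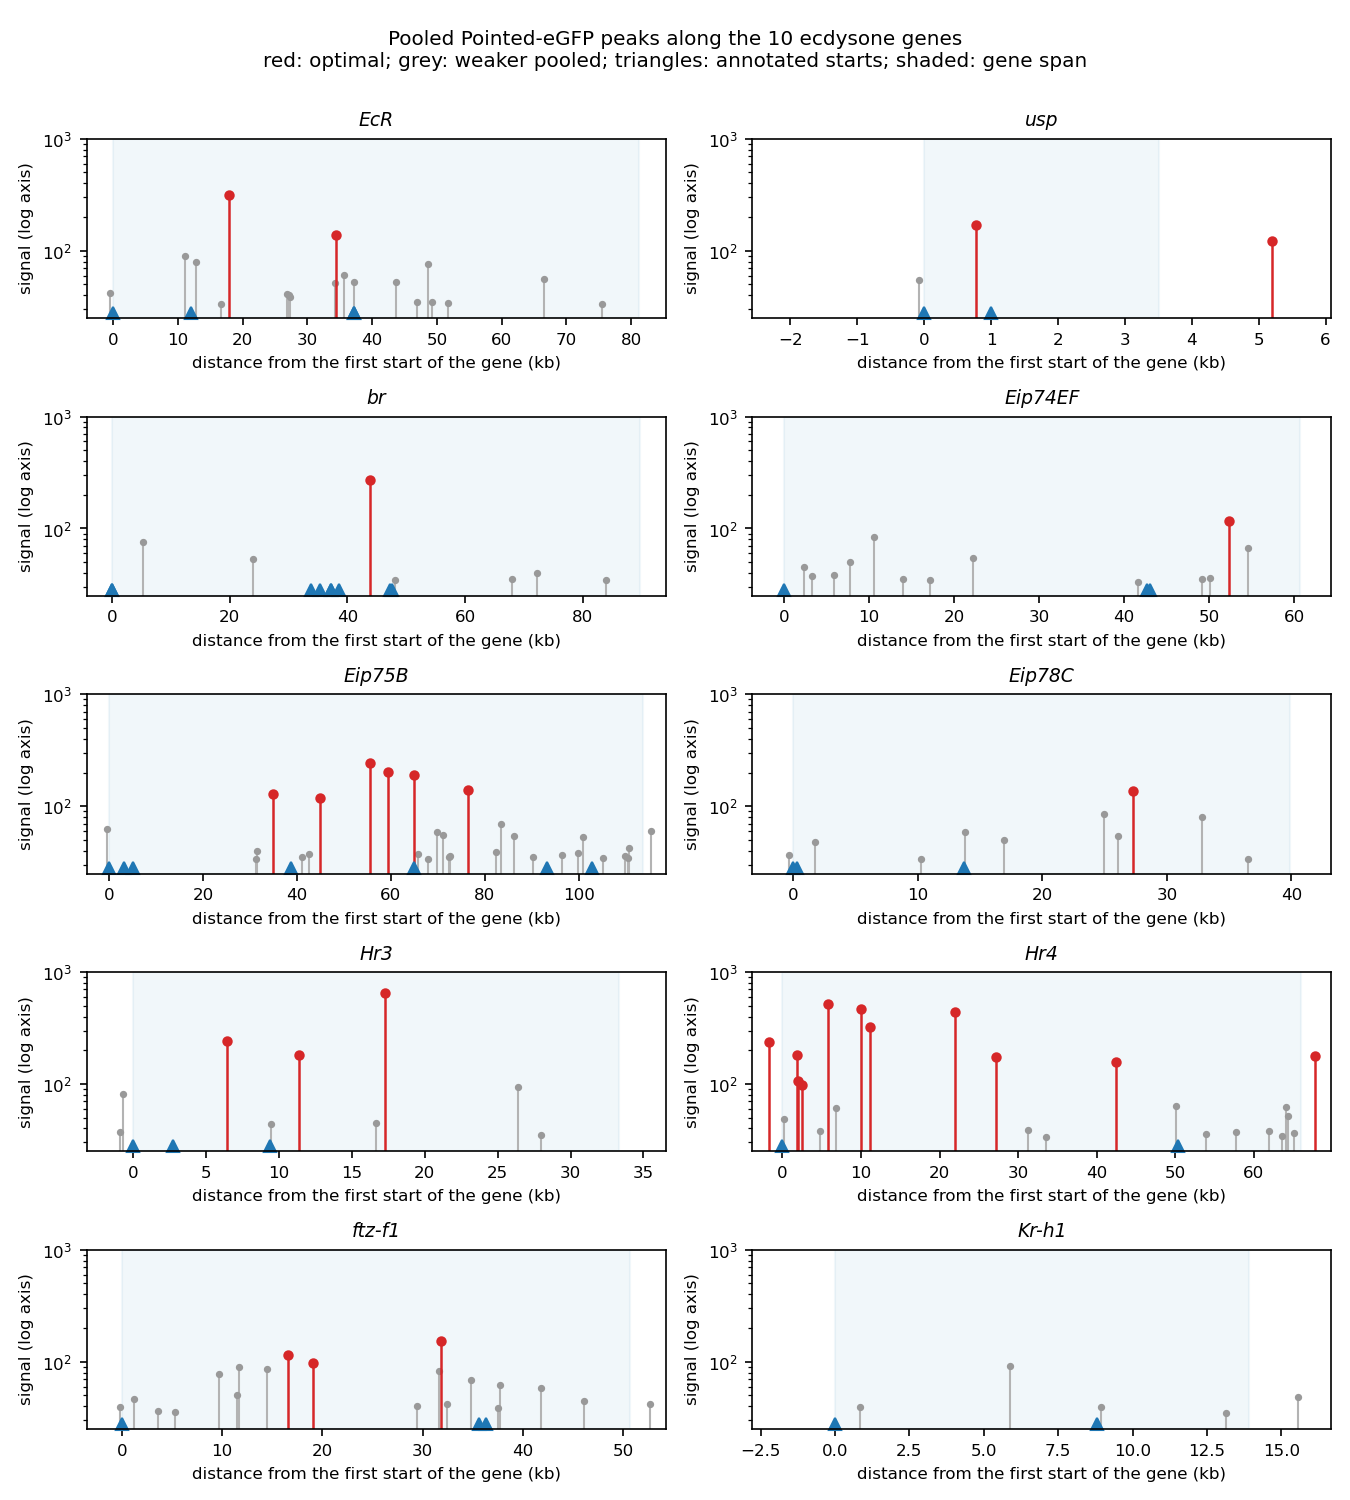
Signal of pooled peaks (authors' units, log axis) against distance in kb from the first annotated start of each of the 10 genes in the direction of transcription, with optimal peaks in red, weaker pooled peaks in grey, annotated starts as triangles and the gene span shaded. Hr4 holds 11 red peaks along its span and flanks, Kr-h1 holds none, and most red peaks stand away from the triangles.

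The receptor itself came first. EcR (FBgn0000546, 2R:6087873-6169087, minus strand) encodes the ecdysone-binding nuclear receptor. Its stronger peak (2R:6151184-6151341, signal 314.4, rank 535) was intronic, 5840 bp from the start shared by transcripts EcR-RD and EcR-RE. That peak ranked 997 in replicate 1, 671 in replicate 2 and 321 in replicate 3, so all 3 libraries placed it among their strongest 1000. The other EcR peak (2R:6134467-6134850, signal 137.5, rank 2132) lay 2737 bp from the start of EcR-RB and EcR-RC and ranked 3276, 3428 and 1571 in replicates 1, 2 and 3. For neither peak was the closest start one of EcR. A tRNA gene (tRNA:Asn-GTT-1-1) had the start closest to the stronger peak, at 1387 bp, and CG14589 the start closest to the weaker, at 2644 bp.

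Ultraspiracle, the RXR-like partner of EcR, is made by the shortest of the 10 genes (FBgn0003964, X:2038798-2042311, minus strand). It was 1 of 2 members with an optimal summit within 500 bp of one of its own transcription start sites (TSSs), against 15.8% of all protein-coding genes. The summit (peak X:2041341-2041724, signal 171.3, rank 1569) lay 221 bp from the start of usp-RA, in the 5′ UTR. It ranked 1874, 1058 and 2692 in replicates 1, 2 and 3. The other usp peak (X:2036927-2037310, signal 122.2, rank 2531) was 1679 bp outside the gene and 500 bp from the start of transcript RH of Actn, which encodes the muscle and cytoskeletal protein alpha-actinin. Both usp summits lie within the span of Actn, so they cannot be given to usp alone.

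Of the early genes, Eip75B had 6 peaks and br and Eip74EF 1 each. The br gene (FBgn0283451, X:1575132-1664869, plus strand) encodes BTB zinc-finger transcription factors. Its peak (X:1618683-1619066, signal 273.7, rank 685) held a steady place, at ranks 663, 581 and 939 in replicates 1, 2 and 3. It was 3433 bp from the nearest br start, that of br-RS, and 720 bp from that of Mur2B, a gene whose span also covers the summit. Eip74EF (FBgn0000567, 3L:17558672-17619325, minus strand) encodes an ETS-domain factor, of the same family as Pointed. Its only optimal peak (3L:17566846-17567229, signal 116.0, rank 2706) was weak, at rank 1863 in replicate 1 but 4431 and 4247 in replicates 2 and 3. The nearest starts were those of CycT, the gene for cyclin T, at 9250 bp, and of Eip74EF-RD at 9282 bp.

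Eip75B (FBgn0000568, 3L:17950953-18064696, minus strand) encodes a haem-binding nuclear receptor that represses Hr3 activity. Its 6 peaks lay over about the middle of the gene, and several ranked very differently between replicates. The strongest (3L:18008987-18009370, signal 240.9, rank 881) ranked 690, 754 and 2067 in replicates 1, 2 and 3. The next (3L:18005111-18005494, signal 203.4, rank 1181) ranked 1065, 1180 and 1755. Both stood higher in replicates 1 and 2 than in replicate 3. The promoter peak of Eip75B-RC (3L:17999599-17999982, signal 190.2, rank 1303), with its summit 30 bp from that start, went the other way, at ranks 1385, 3682 and 601. A peak at 3L:17988142-17988525 (rank 2058) ranked 5088, 4882 and 1513. The peak at 3L:18019622-18020005 (rank 2607) ranked 4415, 3007 and 2524. Of the 30 peaks 1 was found in a single replicate. This peak (3L:18029604-18029987, signal 127.6, rank 2378), 3764 bp from the start of Eip75B-RG, ranked 436 in replicate 3, and no peak of replicate 1 or 2 overlapped it even in their relaxed lists. In replicate 3 it was the strongest Eip75B peak.

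Eip78C (FBgn0004865, 3L:21226609-21266503, plus strand) encodes a nuclear receptor related to Eip75B. Its peak (3L:21253722-21254105, signal 137.9, rank 2115) ranked 2016 and 2075 in replicates 1 and 2 and 3777 in replicate 3, just beyond the 3646 strongest of that library. The summit was 13567 bp from the nearest Eip78C start and 4106 bp from that of CG43218.

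The strongest peak at any of the 10 genes was in Hr3 (FBgn0000448, 2R:10203995-10237348, minus strand), which encodes an orphan nuclear receptor that activates ftz-f1. This peak (2R:10219916-10220230, signal 655.7, rank 106) ranked 130, 63 and 222 in replicates 1, 2 and 3. It was intronic, 7896 bp from the start of Hr3-RA, Hr3-RF and Hr3-RH. The other Hr3 peaks flanked that start. The upstream one (2R:10230679-10231062, signal 240.6, rank 882) was 2914 bp from it and ranked 979, 997 and 862, the narrowest spread of ranks seen at rank 1000 or better among these genes. The remaining one (2R:10225742-10226125, signal 181.8, rank 1430) was 2023 bp from it and ranked 1859, 1206 and 1964. All 3 Hr3 peaks were thus among the strongest 3646 of every replicate. CG12912 and CG46321 overlap Hr3, and CG46321 shares its start, so peaks here belong to Hr3 by position only.

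Hr4 (FBgn0264562, X:1941940-2007956, plus strand) encodes a nuclear receptor that restrains early genes and works in the prepupal cascade. Only 8 of 13945 protein-coding genes (0.0574%) had 11 or more optimal summits. The others were kirre and CG1677 with 15 each, shn with 14, Raf with 13, and CHES-1-like, sbb and ush with 11 each. Per 100 kb of span and flanks, Hr4 stood at 15.7, above kirre at 3.77 and below CHES-1-like at 35.4. Of its 11 peaks 9 were intronic and 2 lay outside the gene, within 2 kb. The peaks X:1943576-1943959 and X:1943776-1944159 overlap and matched the same peak in replicates 1 and 2, which leaves 29 separate regions at the 10 genes. Each replicate alone gave 10 Hr4 summits among its strongest 3646, so the count did not rest on 1 library. The sites were not all the same. Those of replicate 3 include X:2005847-2006262, which is not optimal and ranked 13684 in replicate 1 and nowhere in replicate 2. The optimal peak of rank 1767 ranked 4200 in replicate 3.

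The 4 leading Hr4 peaks were stronger than any peak at the other genes except the strongest one of Hr3. The leading peak (X:1947639-1947868, signal 522.6, rank 190) lay in the intron 5809 bp from the start shared by 7 Hr4 transcripts and ranked 172, 263 and 161 in replicates 1, 2 and 3. The peak at X:1951802-1952025 (signal 466.9, rank 241) ranked 305, 279 and 183. That at X:1963824-1964041 (signal 437.9, rank 268) ranked 292, 227 and 332. No library ranked any of these 3 below 332. The peak at X:1953047-1953198 (signal 320.7, rank 516) was less even, at ranks 662, 306 and 1307. Of the others, the upstream peak (X:1940019-1940402, signal 235.7, rank 913) ranked 760, 1459 and 868 and lay 96 bp from the start of CG3587, 1729 bp before Hr4. The downstream one (X:2009557-2009940, signal 179.5, rank 1468) lay 1793 bp past the end of Hr4 and 208 bp from the start of lncRNA:CR45478. The weakest Hr4 peak (X:1944203-1944586, signal 98.83, rank 3339) ranked 5108, 3215 and 2549. Its match in replicate 3, of rank 2549, also overlapped the Hr4 peak of rank 3007 (X:1943776-1944159).

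The gene for Ftz-f1, the nuclear receptor that marks competence for the next ecdysone pulse (FBgn0001078, 3L:18750607-18801309, minus strand), had 3 intronic peaks, none stronger than rank 1820. The strongest (3L:18769297-18769680, signal 154.1, rank 1820) was 3745 bp from the start of ftz-f1-RC and ftz-f1-RD and ranked 1473, 2108 and 2789 in replicates 1, 2 and 3. The peak at 3L:18784570-18784953 (signal 115.4, rank 2723) ranked 2845, 2124 and 6737. The faintest (3L:18782085-18782468, signal 97.25, rank 3431) ranked 3305, 2646 and 8271 and was the lowest-ranked optimal peak at any of the 10 genes. Replicate 3 placed both of these far lower than replicates 1 and 2. It placed higher a site that is not in the optimal list (3L:18789453-18789868), which ranked 1283 there, 11278 in replicate 1 and nowhere in replicate 2.

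Kr-h1 (FBgn0266450, 2L:6082603-6096498, plus strand), a zinc-finger factor best known as a target of juvenile hormone, was the exception. The pooled relaxed list gave it 5 summits, the best of which (2L:6088303-6088686, signal 90.8, rank 3769) was intronic and fell just below the optimal list, whose weakest signal was 93.2. That site ranked 1828 in replicate 3 and 10975 in replicate 1, and replicate 2 had no peak there. The nearest optimal summit to the gene was 2501 bp beyond its end, 33 bp from the start of CG9175, and so just outside the 2 kb limit. Other genes had near misses of the same kind. An optimal summit stood 2097 bp from EcR near the start of Ars2, and another 2328 bp from Eip74EF near the start of Vps60.

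**Figure D2:**
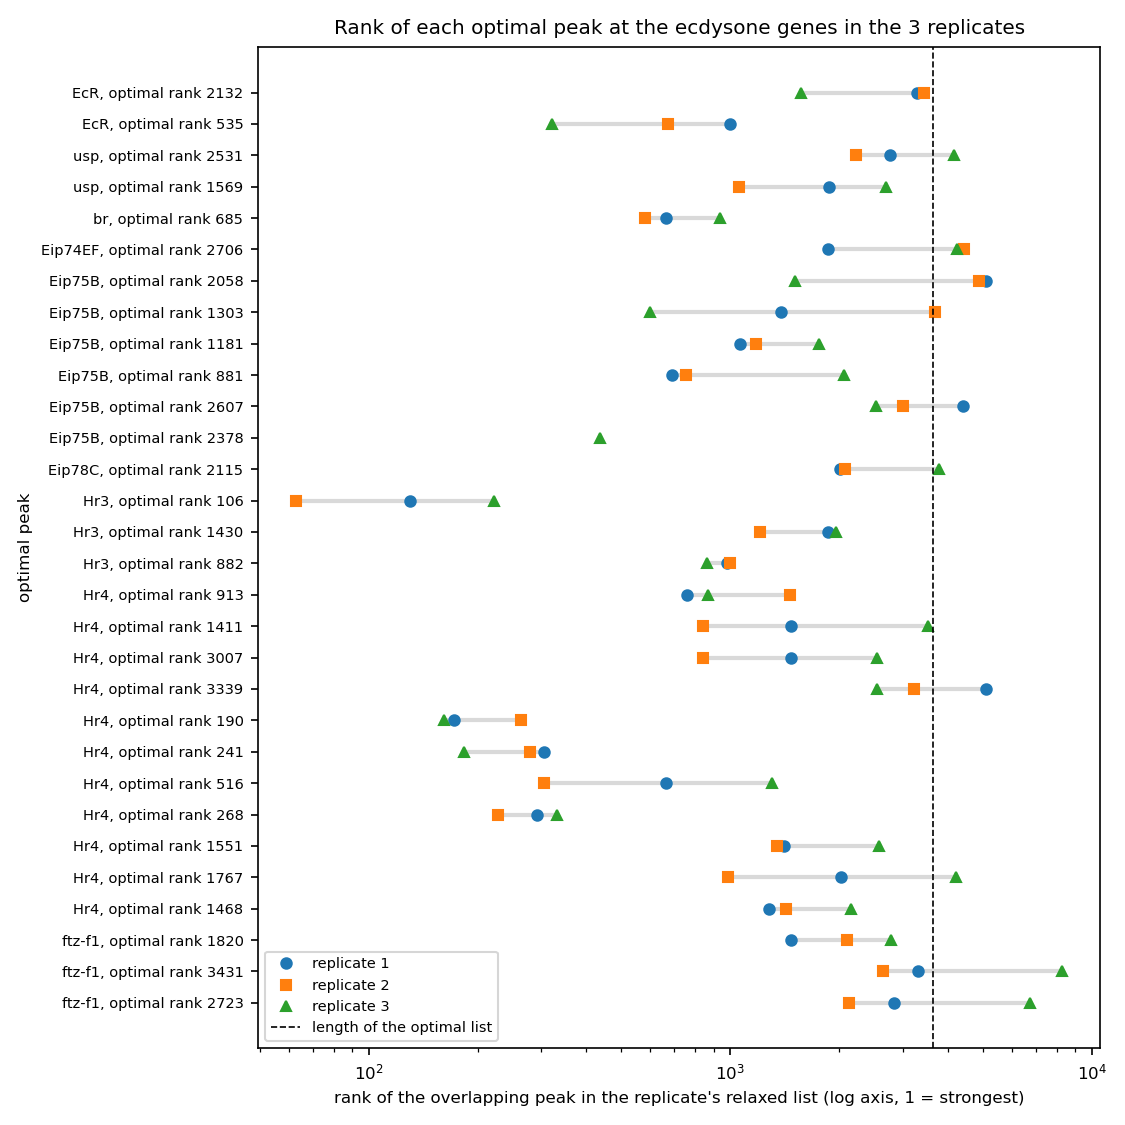
Rank (log axis) of the peak of each replicate's relaxed list that overlaps each of the 30 optimal peaks, with circles, squares and triangles for replicates 1, 2 and 3 and a dashed line at rank 3646. The Hr3 peak of optimal rank 106 and the Hr4 peaks of ranks 190, 241 and 268 stay at rank 332 or better in all 3, and the Eip75B peak of rank 2378 has a single symbol.

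With the 3646 strongest peaks of a replicate taken as its top list, 9, 9 and 8 of the 10 genes had a summit in replicates 1, 2 and 3 (8.67 ± 0.577, SD, n = 3). The shares of all protein-coding genes were 29.6%, 27.0% and 30.9%. Top-list summits at the genes numbered 29, 31 and 30 (30.0 ± 1.0, SD, n = 3). The totals hardly differed, but their places did. EcR had 3, 3 and 4, usp 2, 2 and 1, br 1 in each and Hr4 10 in each. Eip75B had 3, 4 and 6, Eip78C 1, 3 and 0, Eip74EF 1, 1 and 0, Hr3 3, 4 and 4, ftz-f1 5, 3 and 3, and Kr-h1 0, 0 and 1. The Eip74EF summit of replicate 2 (3L:17608580-17608935, rank 3058) is not in the optimal list and is another site than that of replicate 1. Over the whole relaxed lists, replicate 3 held more summits at the genes, with 232 of 30000 (0.773%) against 153 of 30000 (0.51%) in replicate 1 and 125 of 29997 (0.417%) in replicate 2. All 10 genes had a summit in the pooled relaxed list, as did 76.9% of protein-coding genes, and it placed 139 summits at the 10.

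**Figure D3:**
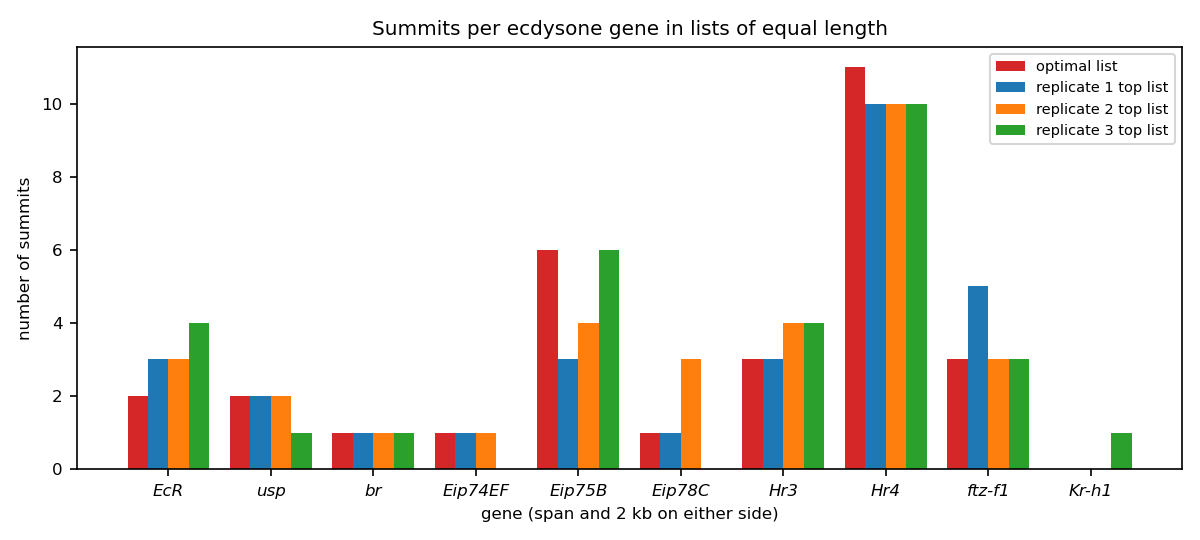
Number of summits in the span or within 2 kb of each of the 10 genes, in the optimal list and in the 3646 strongest peaks of each replicate. Bars for Hr4 stand at 11, 10, 10 and 10, and those of Eip75B differ most between the optimal list and a replicate, at 6 against 3 in replicate 1.

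Of the 30 peaks, 19 (63.3%) were overlapped by at least 1 bp in the top lists of all 3 replicates, against 57.0% of all optimal peaks. A further 8 were found in 2 of the lists and 3 in 1. The 3 were the Eip74EF peak and the Eip75B peaks of ranks 2058 and 2378. Likewise 19 of 30 (63.3%) were among the 1823 strongest optimal peaks, against 50.0% by definition. Their median signal was 176.2, against 153.5 for the list. Across the 29 peaks matched in both lists, Spearman's rho of the replicate ranks was 0.816 for replicates 1 and 2, 0.717 for 1 and 3 and 0.511 for 2 and 3. Over all matched optimal peaks the values were 0.806, 0.573 and 0.533. The replicates are the libraries that also made the optimal list, and peaks are not independent samples, so rho is given as a description.

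Few of the peaks were at promoters. Within 500 bp of any annotated TSS lay 5 of the 30 summits (16.7%), against 48.8% of all optimal summits. Their median distance to a TSS was 3329.5 bp, against 541 bp for the list, and 12 (40.0%) were over 5000 bp away, against 15.0%. Introns held 26 (86.7%), against 47.3% of all optimal summits, and of the rest 2 were in 5′ UTRs and 2 between genes. Long genes were taken as a second background, and an effect of gene length was not tested. Summits at or within 2 kb of protein-coding genes of at least 30 kb were within 500 bp of a TSS in 27.3% of cases and intronic in 79.3%. At the 8 members of that length the counts were 3 of 28 (10.7%) and 25 of 28 (89.3%).

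**Figure D4:**
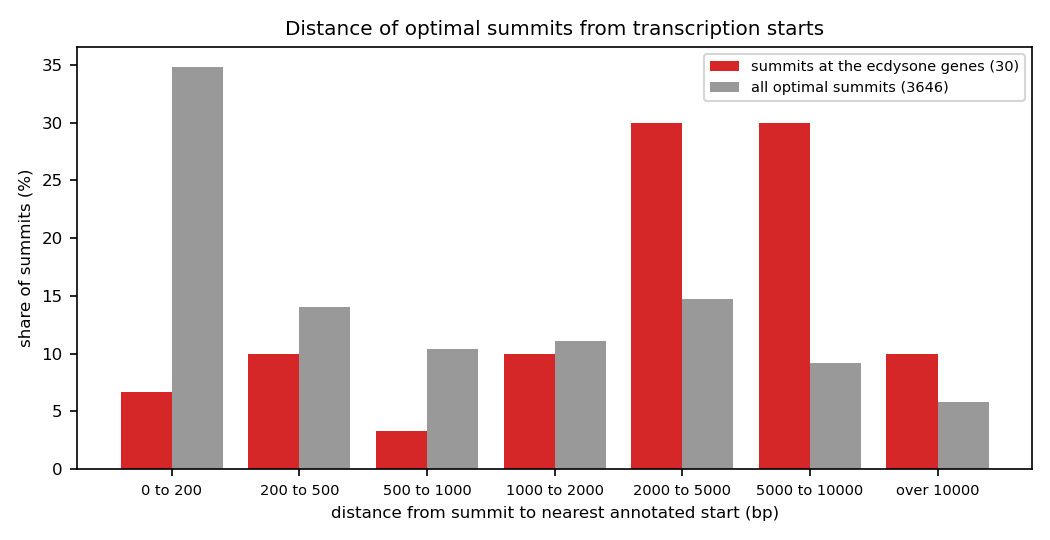
Share of optimal summits (%) by distance in bp to the nearest annotated start, for the 30 at the ecdysone genes in red and for all 3646 in grey. Within 200 bp lie 6.67% of the red and 34.8% of the grey, and from 2000 to 10000 bp the red bars stand at 30.0% each.

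The isoform promoters were also counted. The 10 genes have 38 distinct starts for 61 transcripts, and 2 of them, usp-RA and Eip75B-RC, had an optimal summit within 500 bp. The share over all annotated starts was not counted, so these counts have no background. By gene, 2 of the 10 had such a summit, against 15.8% of all protein-coding genes. The strongest 3646 peaks of replicates 1, 2 and 3 had summits near 2, 1 and 2 of the starts. The pooled relaxed list reached 13 of the 38, all but those 2 through peaks below the optimal list. Among them were the starts of EcR-RB and EcR-RC, 24 bp from a peak of rank 8411, and the shared Hr3 start, 46 bp from a weak peak. Of the 30 optimal summits, 17 had a member's own start as the nearest, counting starts shared with another gene. The like share for other genes was not counted. For the other 13 the nearest start was that of another gene, such as CR46447, a gene within the Hr4 span, for 4 of the Hr4 peaks.

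ETS core letters stood in a smaller share of these summit windows than of all optimal windows. GGAA on either strand occurred in 17 of the 30 windows of 201 bp (56.7%), against 75.5% of the 3646. Windows outside peaks were not searched, and so short a word also occurs in sequence of any kind. These shares therefore do not show whether GGAA marks Pointed peaks. Of the 10 windows at rank 1000 or better, 2 held it, both in Hr4 and of ranks 190 and 516, against 74.9% of all windows of that rank. Of the 20 weaker ones 15 held it, against 75.7%. The split at rank 1000 was made after the windows were read. When the whole deposited peak was searched in place of the window, 5 of those 10 held GGAA, against 79.8%. Those peaks have a median width of 272.5 bp, so for most of them the search covered more bases than the 201 bp windows. The EcR peak of rank 535 and the Hr4 peak of rank 516 are narrower, at 158 and 152 bp. In the window of rank 516 the GGAA lies past the end of the peak, X:1953198. Of the 10 summits 4 are the midpoint of their peak, which places them coarsely. The other 6 are not, and 4 of those 6 windows lacked GGAA. Over all 30 summits, 24 are midpoints. The longer word CCGGAA stood in 1 window, that of the Hr4 peak of rank 190 printed above, or 3.33% against 3.43%.

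Other words were sparse. The 4 windows with AGATGGCGC were those of the EcR peak of rank 535, the Hr4 peak of rank 516 and the Eip75B peaks of ranks 2058 and 2607, that is 13.3% against 1.59% of all optimal windows and 1.93% of those over 500 bp from a TSS. This word was picked after the windows were read, so its count is a description. GAGAG was in 9 windows (30.0% against 24.1%), among them the strongest Hr3 peak, and may overlap other copies of itself. AGGTCA was in 2 (6.67% against 4.33%), the Eip74EF peak and the Hr4 peak of rank 3339. TATCGATA, bound by the promoter factor DREF, was in 0 of 30, against 3.21% of all windows and 0.268% of those over 500 bp from a TSS, where 25 of the 30 lie. The median GC content was 37.8% in the 30 windows and 36.3% in all. A match is only a run of letters, and none of these counts tells whether a factor is bound there.

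The wider ecdysone pathway was peaked unevenly. Of 16 genes for making, releasing, carrying or breaking down the hormone, or for regulating these steps, 1 (6.25%) had an optimal summit. It was at Ptth, the brain hormone that triggers ecdysone synthesis, with a peak of rank 1118 that lay 44 bp from the start of the neighbouring gene cold. The synthesis enzymes nvd, spo and spok had none. The name EcI, also on that list, matched no single gene and was left out. Of 15 other nuclear receptors and cofactors, 8 (53.3%) had one. Their strongest were at Hr51 (rank 381, 801 bp from the start of unc-5), at Smr, a corepressor that binds EcR (rank 468), and at Hr96 (rank 628). The Hr96 peak lay 56 bp from the start of EMC6 and 162 bp from an Hr96 start. Hr39, Hr78 and Hr83 had none. Of 18 other ecdysone-induced genes, 7 (38.9%) had one. ImpL2, which encodes a secreted insulin-binding protein, had a peak of rank 141, the transporter gene E23 one of rank 282 and the kinase gene Eip63E one of rank 301. Eip93F, Eip55E (annotated as Cth) and Eip71CD (annotated as MsrA) had none. The share over all protein-coding genes was 29.4%, and the lists differ in gene length, with median spans of 2893, 8638 and 7803.5 bp. These lists, too, were chosen with earlier results of these data known.

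Both Hr4 and usp lie in the same part of the X chromosome. The 104372 bp from the start of Hr4 to the start of usp-RB, with flanks, held 13 optimal summits, or 12.5 per 100 kb. The 100 kb bin with most of Hr4 held 11, a number reached by 18 of 1342 such bins (1.34%), and the next one 10, reached by 30 (2.24%). In pattern over the replicates, the peaks most like the strongest Hr3 peak were those at CG12912 and CG46321, which are the same peak, since both genes overlap it. After them came babos, whose strongest peak (signal 656.2) ranked 110, 77 and 227, a distance of 0.11 in log10 rank over the 3 replicate lists.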

How the data were processed

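Anti-GFP ChIP-seq peaks of Pointed-eGFP were read from lists on dm6. The deposited file notes state that a relaxed list was called for every replicate against a control, that a pooled relaxed list came from all 3 together, and that applying the irreproducible discovery rate (IDR) procedure to those lists gave the optimal one. Chromatin was sonicated to 200 to 800 bp, per the labels. For the aligner, caller, versions and IDR threshold, nothing is stated in the labels or notes used. Peaks carry a signal deposited by the authors, of unstated scale, by which they were ranked inside each list. The authors also gave −log10 of a q-value for each peak, which was not used for ranking. The summit was the start plus the deposited offset. The optimal peaks were the 3646 of highest signal among 23148 pooled ones.

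Genes and starts came from Ensembl release 115 (FlyBase 6.54), leaving out transposable elements, and sequence from RefSeq Release 6, with 1-based coordinates. Analysis used Python 3.11.15, pandas 2.3.3, numpy 2.4.6, scipy 1.17.1 and pyfaidx 0.9.0.4, and gene assignment was tested on simulated summits. Named genes are the members, those with the start nearest to a summit, up to 3 with and 3 without an optimal peak from each pathway list (49 of 50 names matched), and the 3 with ranks most like the strongest member peak. Further genes named in the account of Hr4 and of near misses were chosen after their values were seen. Members and lists were chosen with earlier results of these data known. Alternatives changed the reach, assignment, start window, overlap, peak list and replicates used. The dm3 lists and all reads were not analysed here, and depth is unknown, so no interval that needs depth is given. No p-values were computed.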

Additional observations from a re-analysis of the deposited data

How the results depend on the processing

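Of 40 alternative settings over the 4 main counts, 31 stayed within 1.5 times of the value reported and 9 did not. Some had little room to move, since the genes with a summit cannot exceed 10. Leaving out 1 replicate can only keep or raise the count of peaks found in every list. It also enters the same peaks under 2 of the main counts, and the optimal list was not remade. The tally is therefore no measure of stability. Giving each summit only to the gene with the nearest start left 5 genes with 17 summits, since 13 summits lay nearer to another gene. The share of all protein-coding genes under that assignment was not counted. Keeping the 1823 strongest peaks left 19 summits, and the pooled relaxed list gave 139, of which 25 were within 500 bp of a start. A start window of 200 bp left 2 promoter summits in place of 5. Top lists of 1823 peaks gave 10 peaks found in every replicate and whole relaxed lists 29, in place of 19. Requiring an overlap in the top lists of 2 replicates and leaving out the other gave 7 to 8 genes, 20 to 24 summits, 3 to 4 promoter summits and 20 to 24 peaks found in both; the lowest promoter count, 3, came without replicate 1. For all but the count of peaks found in both, these settings were chosen after seeing the data, as was counting starts of transposable elements. No paired analysis was possible because there is 1 group. With depth unknown, it cannot be told whether weak sites such as that of Kr-h1 would be listed at greater depth.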
